A study of Homo sapiens with 4 samples.

Results

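The NRF2 and glutathione genes examined here are NFE2L2, which encodes the transcription factor NRF2, its inhibitor KEAP1, and 7 genes of the antioxidant programme, GCLC, GCLM, NQO1, TXNRD1, SRXN1, AKR1B10 and GSR. They were taken as a list of 9 genes, of the 19775 genes that had a probe set of their own on the arrays. The list was chosen with earlier results of these data known. Every probe set annotated to a listed gene alone was read. That gave 19 probe sets, of which 16 reached a log2 level of 6, taken here as the edge of background, in at least 1 array. Of the genes, 8 had such a probe set. AKR1B10 had none, and 1 further probe set shared by NFE2L2 and CSNK2A1 was left out.

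RNA came from SUM159, a mesenchymal human breast cancer line without hormone receptors, long established in culture, in which a pTRIPZ construct gives doxycycline-inducible expression of the microRNA miR-100. Cells were flow-sorted by aldehyde dehydrogenase (ALDH) status, which serves to enrich stem-like breast cancer cells, and were then kept in suspension. The 4 groups were ALDH-positive DOX, ALDH-positive control, ALDH-negative DOX and ALDH-negative control, with 1 Affymetrix array each and the construct in all of them. The series asks what miR-100 acts on in stem-like and other cells. DOX is doxycycline for 10 h in the titles and treatment protocol, whereas the sample descriptions name doxorubicin, another drug, and 13 h. DOX stands for the treated arrays whichever drug it was. Cells without the construct, which would separate doxycycline from miR-100, were not analysed here, and the arrays do not measure the mature microRNA. The labels do not say whether the cells are 1 clone.

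All values are log2 probe set summaries made with RMA, and a gene is stood for by its probe set with the highest mean. With 1 array a group, a difference between 2 arrays has no replicate check and no p-value. A call needed a log2 difference of at least 1 in size, that is 2-fold, and a level of 6 in 1 of the 2 arrays. All 5 mesenchymal markers (VIM, CD44, FN1, ZEB1, CDH2) were above 6 on all 4 arrays. Of 7 epithelial and luminal markers, KRT8, KRT18 and ERBB2 were above 6 throughout and CDH1, EPCAM, ESR1 and PGR were under it on every array. None of the 3 immune and 2 endothelial markers with a probe set reached 6, and HBB, an erythroid marker, was at 6.44 in ALDH-positive DOX and 6.98 in ALDH-positive control, against 5.62 in ALDH-negative DOX and 5.77 in ALDH-negative control. Its part in the results was not tested. ALDH1A1, an enzyme behind the sorted activity, was at 10.66 in ALDH-positive DOX and 11.77 in ALDH-positive control, against 10.86 in ALDH-negative DOX and 10.72 in ALDH-negative control. ALDH1A3, another such enzyme, was at 6.64 in ALDH-positive DOX and 6.48 in ALDH-positive control, against 7.79 in ALDH-negative DOX and 5.86 in ALDH-negative control. In the DOX arrays both enzymes were thus lower in the ALDH-positive fraction, against the direction of the sort label, and in the control arrays both were higher in it. Over all probe sets the ALDH-negative pair correlated with r = 0.996 and the ALDH-positive pair with r = 0.983. In the ALDH-positive pair the balance turned with the choice of probe sets. Among genes 3.47% were 2-fold higher and 2.30% lower with DOX, while among single probe sets 3.88% were higher and 5.69% lower.

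NRF2 is held at a low level by KEAP1, which hands it to the CUL3 ubiquitin ligase for destruction. Oxidants and electrophiles modify KEAP1, NRF2 then accumulates, pairs with a small MAF protein and binds antioxidant response elements near its target genes. Much of this control acts on the NRF2 protein, which arrays do not see. The targets make glutathione (GCLC and GCLM), return oxidised glutathione and thioredoxin to their reduced forms (GSR and TXNRD1), repair over-oxidised peroxiredoxins (SRXN1), and detoxify quinones and carbonyls (NQO1 and AKR1B10).

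The mature microRNA that the construct encodes is shown from RefSeq on GRCh38.p14, chr11:122152275-122152296 on the minus strand, with its seed, bases 2 to 8, in capitals. The seed ACCCGUA is shared by miR-99a-5p and miR-99b-5p.
hsa-miR-100-5p: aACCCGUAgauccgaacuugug

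The promoter sequences of members were searched for the core of the antioxidant response element, TGACNNNGC, on both strands. RefSeq windows ran from 250 bases before to 50 bases after a start site. Those of 7 of the 9 members were counted, 10 windows in all. No window of AKR1B10 or GSR was searched, so the counts say nothing of either gene. The letters occurred in 4 of the 10 windows, those of GCLM, KEAP1 (1 of 2 start sites) and TXNRD1 (both start sites), and in 13.3% of all 35116 windows of that length. A match is a run of letters and not a shown site, and its absence says only that these letters are not in the window. The sequences below show GCLM and NQO1, the members 2-fold lower in ALDH-positive cells under both treatments, as the 250 bases before the start site, and KEAP1 and TXNRD1 as 60 bases around their match. Capitals mark each match. The positions on GRCh38.p14 are chr1:93909431-93909680 on the minus strand for GCLM, chr16:69726561-69726810 on the minus strand for NQO1, chr19:10502773-10502832 on the minus strand for KEAP1 and chr12:104286900-104286959 on the plus strand for TXNRD1.
GCLM: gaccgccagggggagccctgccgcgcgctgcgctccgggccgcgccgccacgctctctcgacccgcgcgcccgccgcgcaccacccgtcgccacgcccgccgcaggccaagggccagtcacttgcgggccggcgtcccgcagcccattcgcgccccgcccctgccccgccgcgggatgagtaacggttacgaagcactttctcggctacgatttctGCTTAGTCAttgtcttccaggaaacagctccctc
NQO1: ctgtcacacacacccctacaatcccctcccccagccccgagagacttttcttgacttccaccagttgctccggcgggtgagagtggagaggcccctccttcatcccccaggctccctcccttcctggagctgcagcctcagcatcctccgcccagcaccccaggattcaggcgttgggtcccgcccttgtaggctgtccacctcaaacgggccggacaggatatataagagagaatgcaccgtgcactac
KEAP1: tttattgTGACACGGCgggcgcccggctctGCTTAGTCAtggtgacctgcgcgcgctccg
TXNRD1: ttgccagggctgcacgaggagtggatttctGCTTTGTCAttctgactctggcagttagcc
GCLM and KEAP1 hold the same 9 letters, GCTTAGTCA, which begin 34 bases before the start site in GCLM and 31 bases before it in KEAP1. KEAP1 also holds TGACACGGC, 54 bases before the start site. TXNRD1 holds GCTTTGTCA 102 bases before the start site shown, and 2 further matches at its other start site. No match lies in the NQO1, GCLC, SRXN1 and NFE2L2 windows.

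GCLM, the modifier subunit that makes glutamate-cysteine ligase more efficient, and NQO1, a quinone reductase widely used as a readout of NRF2, were 2-fold or more lower in ALDH-positive cells under control and under DOX. GCLC, the catalytic subunit of the same ligase, was 2-fold lower in the DOX arrays alone. On the probe sets that stand for them, TXNRD1, NFE2L2, SRXN1 and GSR differed by less than 0.6 on the log2 scale in each of the 4 array pairs. Another NFE2L2 probe set was at -0.85 with DOX in ALDH-positive cells. In bulk RNA, fewer cells with a transcript and less of it per cell cannot be told apart.

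**Figure D1:**
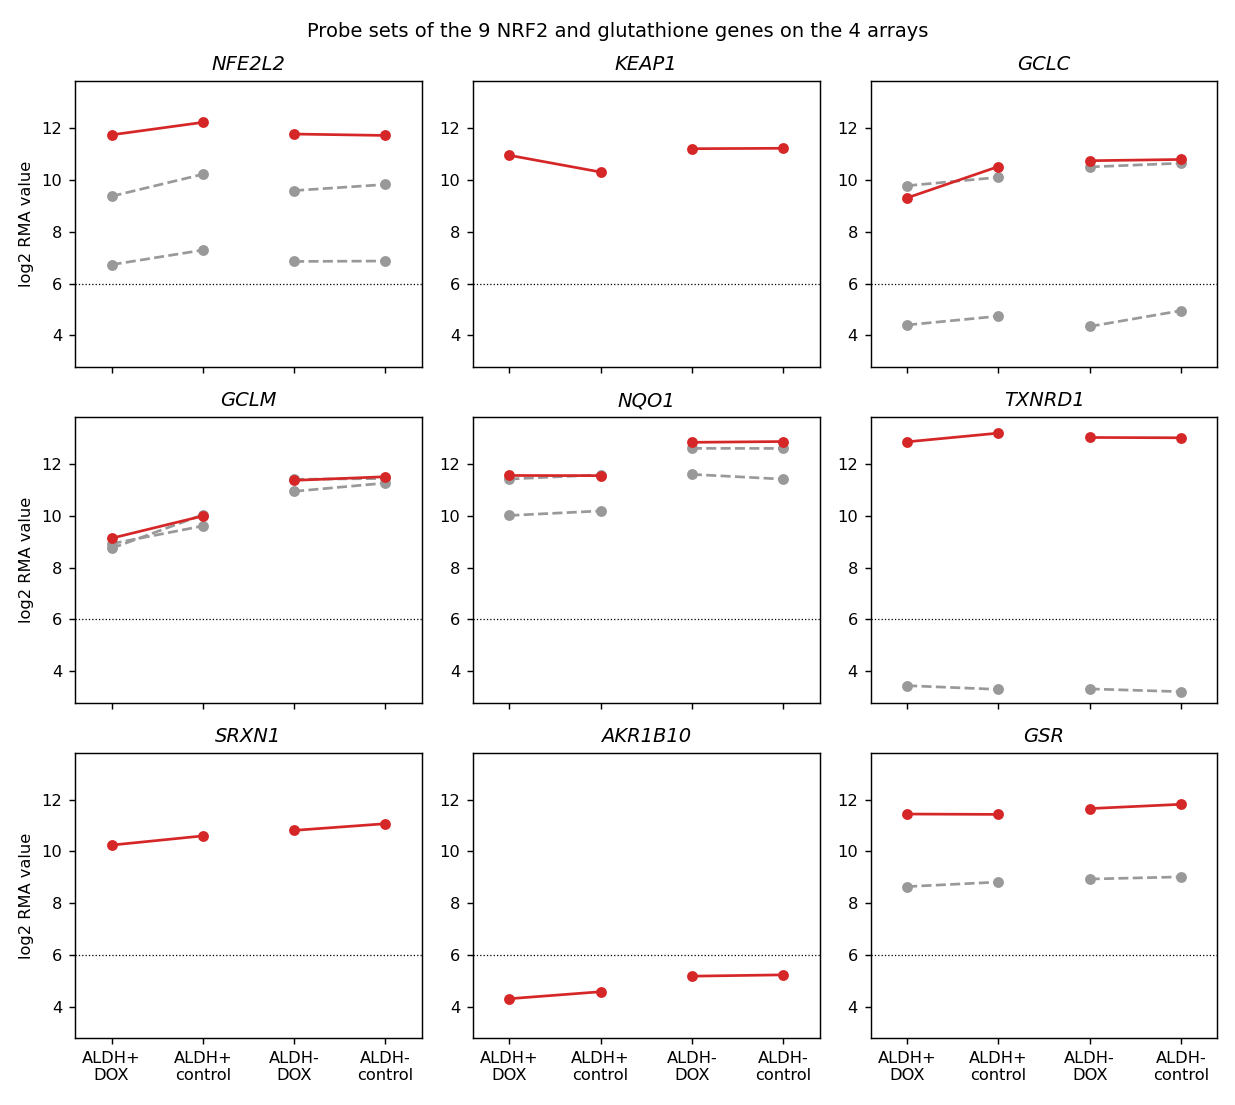
Log2 RMA values of every probe set of the 9 genes (y axis) on the 4 arrays (x axis), with the probe set that stands for the gene in red and solid and the others in grey and dashed. The dotted line marks the level of 6. All 3 GCLM and all 3 NQO1 probe sets lie lower on the ALDH-positive arrays, and AKR1B10 lies under 6 on every array.

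GCLM was at 9.13 in ALDH-positive DOX and 9.99 in ALDH-positive control, against 11.36 in ALDH-negative DOX and 11.50 in ALDH-negative control. The ALDH-positive arrays were both below the ALDH-negative ones, and all 3 of its probe sets put the 4 arrays in this same order. The share of all genes with such an order was not counted. The ALDH difference was -1.51 in control and -2.23 in DOX arrays, which is 2.85-fold and 4.69-fold lower. The other GCLM probe sets gave -1.40 and -1.65 in control arrays and -2.66 and -2.02 in DOX arrays.

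NQO1 was at 11.54 in ALDH-positive DOX and 11.54 in ALDH-positive control, against 12.82 in ALDH-negative DOX and 12.85 in ALDH-negative control. On this probe set DOX and control arrays lay within 0.04 of each other in each fraction. The ALDH difference was -1.31 in control and -1.28 in DOX arrays, 2.49-fold and 2.42-fold lower. Over its 3 probe sets, all of a kind that can hybridise to several transcripts (names ending in _s_at or _x_at, called shared probe sets here), it spanned -1.31 to -1.02 in control and -1.58 to -1.18 in DOX arrays.

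GCLC was at 9.30 in ALDH-positive DOX and 10.51 in ALDH-positive control, against 10.73 in ALDH-negative DOX and 10.78 in ALDH-negative control. The ALDH-positive DOX array was the low one, and the other 3 lay within 0.28 of each other. Its ALDH difference was -0.27 in control and -1.43 in DOX arrays. The values come from a shared probe set, and the unshared probe set gave -0.54 and -0.72.

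KEAP1 was at 10.94 in ALDH-positive DOX and 10.29 in ALDH-positive control, against 11.19 in ALDH-negative DOX and 11.21 in ALDH-negative control. The ALDH-positive control array was the low one, with an ALDH difference of -0.92 there and -0.26 in the DOX arrays, from the gene's 1 probe set. NFE2L2 was at 11.73 in ALDH-positive DOX and 12.21 in ALDH-positive control, against 11.76 in ALDH-negative DOX and 11.70 in ALDH-negative control. Here the ALDH-positive control array was the high one on all 3 probe sets. The ALDH difference of NFE2L2 was 0.50 in control and -0.03 in DOX arrays. The transcript of the regulator and those of GCLM and NQO1 thus lay on opposite sides in the control arrays.

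The reductases and sulfiredoxin differed less. SRXN1 was at 10.25 in ALDH-positive DOX and 10.60 in ALDH-positive control, against 10.81 in ALDH-negative DOX and 11.07 in ALDH-negative control. GSR, glutathione reductase, was at 11.44 and 11.43 in ALDH-positive DOX and control, against 11.65 and 11.82 in ALDH-negative DOX and control. TXNRD1, thioredoxin reductase, was at 12.84 in ALDH-positive DOX and 13.18 in ALDH-positive control, against 13.01 in ALDH-negative DOX and 13.00 in ALDH-negative control, with no order by fraction. AKR1B10, an aldo-keto reductase, lay between 4.33 and 5.25, all under the level of 6, so that its differences are differences of background and give no direction.

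Read against all genes, 2 of the 8 measured members were 2-fold lower in ALDH-positive control cells and none was higher, where 4.40% of 12052 genes were lower. In the DOX arrays 3 of 8 were lower and none was higher, where 5.32% of 12228 genes were lower. The members' median difference was -0.43 in control and -0.41 in DOX arrays, beside -0.0047 and 0.08 over all genes. By single probe sets, 6 of 16 were 2-fold lower in control arrays, where 5.30% of all probe sets were, and 7 of 16 in DOX arrays, where 8.48% were. These 6 and 7 include 3 probe sets each of GCLM and NQO1, which are repeated readings of a gene and not independent. Because the list was chosen with earlier results of these data known, the shares describe the members and test nothing.

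**Figure D2:**
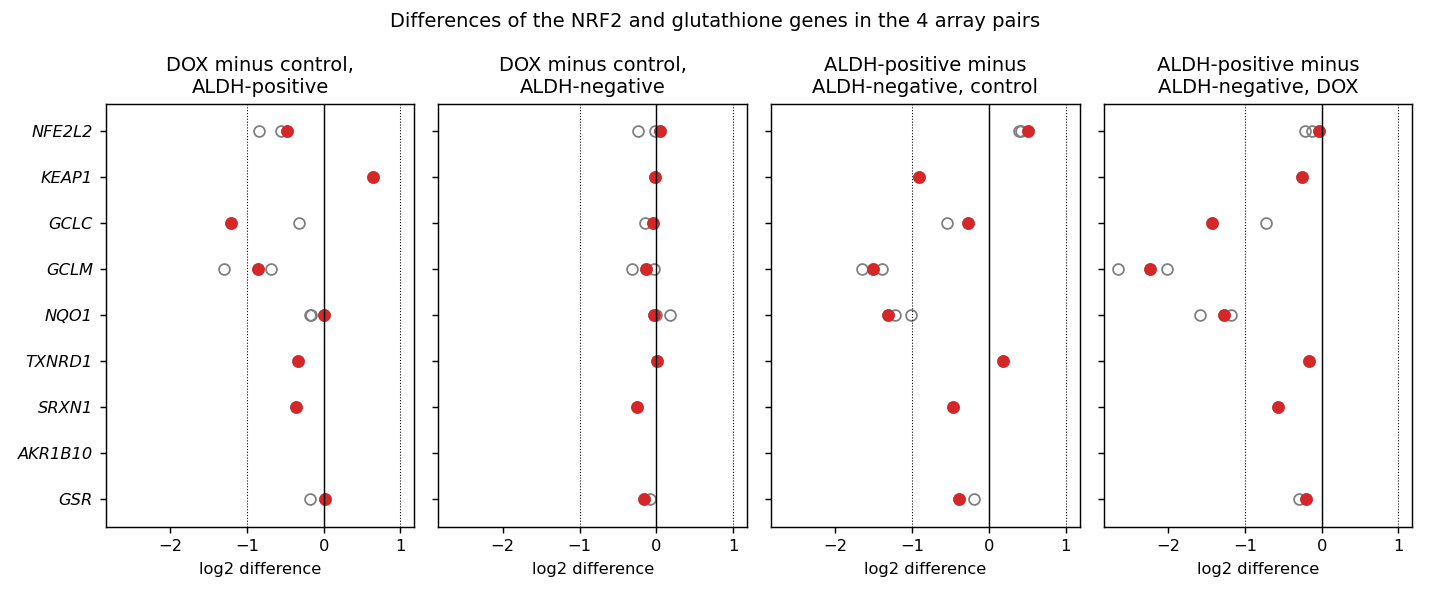
Log2 differences (x axis) of the 9 genes (y axis) in the 4 array pairs, with the probe set that stands for the gene filled in red and its other probe sets above background as open circles. Dotted lines mark 2-fold. GCLM and NQO1 lie beyond -1 in both ALDH comparisons, and no gene reaches 2-fold with DOX in ALDH-negative cells.

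The mean ALDH difference over both treatments was tested with an additive model in ALDH status and DOX. It was fitted to all 12365 genes above background with limma, with 1 residual degree of freedom for each gene. GCLM fell by 1.87 ± 0.23 on the log2 scale in ALDH-positive cells (SE, limma adjusted p = 0.000187, n = 2 arrays a fraction, lower in 2 of 2 pairs). NQO1 fell by 1.30 ± 0.12 (SE, limma adjusted p = 2.55e-05, lower in 2 of 2 pairs). GCLC fell by 0.85 ± 0.27 (SE, limma adjusted p = 0.0401, lower in 2 of 2 pairs), a call that was lost in 5 of 9 alternative fits, where the limma adjusted p reached 0.173. Of the other members, KEAP1 was at -0.59 ± 0.21 (SE, limma adjusted p = 0.0645) and SRXN1 at -0.52 ± 0.20 (SE, limma adjusted p = 0.0840), neither of which passed. GSR (-0.30), NFE2L2 (0.24) and TXNRD1 (0.01) did not pass either. The 95% interval for TXNRD1 ran from -0.21 to 0.22 and that for NFE2L2 from -0.11 to 0.58.

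In all, 3 of 8 members passed as lower and none as higher, where 9.58% of the 12365 genes passed as lower. In a fit with every probe set as a row of its own, 6 of 16 member probe sets passed as lower, where 5.27% of all probe sets did. They were the 3 of GCLM and the 3 of NQO1, and GCLC was not among them. Nothing in the labels describes the arrays as separate cultures, so that the p-values may measure technical spread, and a response to DOX that differs between fractions counts as error in this model.

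**Figure D3:**
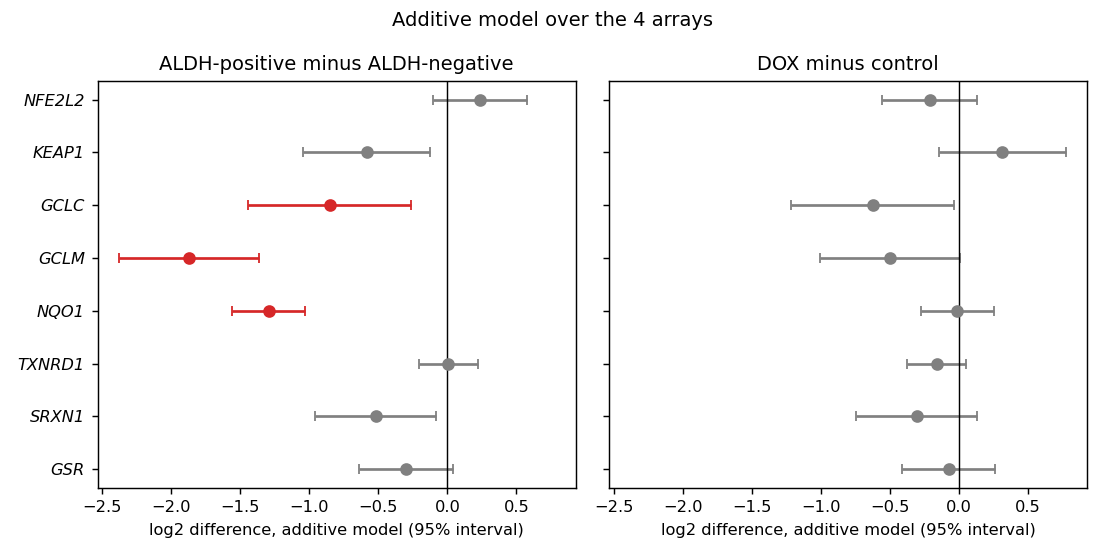
Estimates of the additive model for the 8 members above background (y axis), as log2 differences with 95% intervals (x axis), for ALDH fraction on the left and DOX on the right. Red marks a limma adjusted p under 0.05. GCLC, GCLM and NQO1 are red on the left, and no member is red on the right.

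DOX treatment, the condition meant to induce miR-100, went with lower glutamate-cysteine ligase transcripts in the ALDH-positive arrays and with little difference in the ALDH-negative ones. In ALDH-positive cells GCLC differed by -1.21 with DOX, 2.31-fold lower, and was the 1 member of 8 called, where 2.30% of 12151 genes were lower. Its unshared probe set gave -0.32, so that the call rests on 1 of 2 probe sets. GCLM differed by -0.86, with its other probe sets at -1.29, past 2-fold, and -0.68, all on the same side. NFE2L2 differed by -0.48, and by -0.56 and -0.85 on its other probe sets, while KEAP1 differed by 0.64 in the other direction. SRXN1 (-0.35) and TXNRD1 (-0.34) lay below 0, and NQO1 (0.0061) and GSR (0.01) lay near 0, with their other probe sets on the opposite side, at -0.17 and -0.16 for NQO1 and -0.17 for GSR. The members' median was -0.34, beside 0.12 over all genes of this pair.

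In ALDH-negative cells no member was called with DOX, where 0.322% of 11819 genes were. The differences ran from -0.26 for SRXN1 to 0.05 for NFE2L2, with a median of -0.04 beside -0.0036 over all genes. GCLM was at -0.14 and GCLC at -0.05. The gap between the DOX differences of the fractions, ALDH-positive minus ALDH-negative, was -1.16 for GCLC, -0.72 for GCLM, -0.54 for NFE2L2 and 0.66 for KEAP1. With 1 array a group it was not tested. Of the probe sets that stand for the members, that of GCLC reached 2-fold, where 2.40% of 12365 genes did so on that side. The unshared GCLC probe set gave a gap of -0.18, and another GCLM probe set gave -1.26.

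Averaged over fractions by the additive model, no member passed for DOX, where 0.00809% of genes, 1 in all, did. GCLC was at -0.63 ± 0.27 (SE, limma adjusted p = 0.916) and GCLM at -0.50 ± 0.23 (SE, limma adjusted p = 0.916). At an unadjusted p under 0.05, 1 member would pass, GCLC. NQO1 was at -0.01, with a 95% interval from -0.28 to 0.25. The ALDH comparison of the DOX arrays and the DOX comparison of the ALDH-positive cells share the ALDH-positive DOX array. The lower GCLC level stands in both through that array, while the control-array differences of GCLM and NQO1 do not use it.

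Genes whose 4 arrays ran most like a member were sought among the 12365 genes above background, by the Euclidean distance between log2 values after each gene was centred on its own mean over the 4 arrays. The search covered GCLC, GCLM and NQO1, whose values spanned at least 1. AKR1C1, an aldo-keto reductase and known NRF2 target, was nearest to GCLM at a distance of 0.14, ahead of TSPAN13 (0.15) and MCM10 (0.17). The AKR1C1 values come from a shared probe set. Over the gene's 5 probe sets above background the ALDH difference spanned -4.48 to -1.37 in control and -4.27 to -0.87 in DOX arrays. The distance thus holds for that probe set. SLC2A6 (0.04), NPEPL1 (0.08) and WWOX (0.09) were nearest to NQO1, and UBE2G1 (0.05), PPP4R3A (0.08) and LSM6 (0.09) to GCLC. With 4 arrays this likeness is a description.

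The wider pathway was read from 6 lists of 113 genes, members left out, of which 104 had a probe set of their own and 95 were above background. These lists too were chosen with earlier results of these data known. Other detoxifying NRF2 targets were lower in ALDH-positive cells more often than higher. Of 15 measured genes in the list of other NRF2 targets, 5 were 2-fold lower in ALDH-positive control cells and 1 was higher, where 4.40% and 6.09% of all genes were, with a list median of -0.67. In the DOX arrays 7 were lower and 1 higher, where 5.32% and 11.4% of all genes were, with a list median of -0.68. In the additive model 8 of 15 fell and 1 rose, where 9.58% and 13.5% of all genes did. The lower genes in all of these counts include AKR1C1, AKR1C2 and AKR1C3, closely related genes that can share signal. The counts are therefore not of independent genes.

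CBR1, a carbonyl reductase, was at 9.98 in ALDH-positive DOX and 10.12 in ALDH-positive control, against 11.48 in ALDH-negative DOX and 11.63 in ALDH-negative control. It fell by 1.503 ± 0.20 in the additive model (SE, limma adjusted p = 0.000242). AKR1C1 was at 11.78 in ALDH-positive DOX and 12.51 in ALDH-positive control, against 13.92 and 13.95 in ALDH-negative DOX and control, and fell by 1.79 ± 0.13 (SE, limma adjusted p = 5.01e-06). AKR1C2 (-1.42) and AKR1C3 (-1.29) fell too, but these closely related genes can share signal. The AKR1C3 probe set is not a shared one, whereas AKR1C2 was at 0.09 in the control arrays when shared probe sets were left out. HMOX1, haem oxygenase 1, was at 9.30 in ALDH-positive DOX and 12.21 in ALDH-positive control, against 13.11 in ALDH-negative DOX and 13.25 in ALDH-negative control. It was the member of the 6 lists with the largest DOX difference, -2.91 in ALDH-positive cells, and its ALDH difference was -1.05 in control and -3.81 in DOX arrays. Its call in the additive model (-2.43 ± 0.41 SE, limma adjusted p = 0.00144) was lost with robust moderation (limma adjusted p = 0.436), without the trend (0.0662) and without the filter on level (0.0733). BLVRB, biliverdin reductase B, rose by 1.66.

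Of 11 measured genes of glutathione synthesis, import and breakdown, 3 were 2-fold higher and 1 lower in ALDH-positive control cells, where 6.09% and 4.40% of all genes were. In DOX arrays 4 were higher and 1 lower, where 11.4% and 5.32% of all genes were. In the additive model 5 rose and 1 fell, where 13.5% and 9.58% of all genes did, so that all genes lean higher too. CHAC1, which degrades glutathione, was at 9.66 and 10.58 in ALDH-positive DOX and control, against 5.44 (under background) and 6.08 in ALDH-negative DOX and control. CTH and CBS, the transsulfuration enzymes that make cysteine from homocysteine, rose by 2.14 ± 0.25 and 2.53 ± 0.25 (SE, limma adjusted p = 0.000108 and 3.53e-05). Over the 3 CBS probe sets above background the ALDH difference spanned 0.65 to 2.69 in control and 1.00 to 3.02 in DOX arrays. CHAC2, a slower glutathione-degrading relative of CHAC1, fell by 1.39 ± 0.25 (SE, limma adjusted p = 0.00211). GGT5, of the gamma-glutamyl transferase family, rose by 1.24, a call lost without the filter on level (limma adjusted p = 0.0644). Its 1 probe set above background is a shared one. CHAC1, CTH and CBS are also known outputs of stress and amino acid signalling, so that the list is not one of NRF2 targets alone.

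Among 27 measured genes of glutathione use and export, 2 were 2-fold higher and none lower in ALDH-positive control cells, and 4 were higher and none lower in DOX arrays. In the additive model 5 rose and 2 fell. These counts lie near the shares of all genes given for the list before. GSTO2, an omega-class glutathione transferase, rose by 1.46 ± 0.28 (SE, limma adjusted p = 0.00301), but its other probe set above background was at -0.05 in control arrays and the call was lost with probe sets averaged (limma adjusted p = 0.0891). GPX4, which reduces lipid peroxides, rose by 0.95 ± 0.25 (SE, limma adjusted p = 0.0159). That call was lost without the filter on level (limma adjusted p = 0.108) and without the trend (0.0921). Among 19 genes of thioredoxin, peroxiredoxin and superoxide handling, 2 were 2-fold higher and 1 lower in control arrays, where 6.09% and 4.40% of all genes were, and 4 were higher and none lower in DOX arrays, where 11.4% and 5.32% were. In the model 6 rose and 2 fell, where 13.5% and 9.58% of all genes did. TXNIP, an inhibitor of thioredoxin, rose by 1.72 ± 0.11 (SE, limma adjusted p = 3.97e-06) and SESN2, a stress-induced sestrin, by 2.21 ± 0.26 (SE, limma adjusted p = 0.00012). All probe sets of TXNIP and SESN2 above background are shared ones.

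Of 12 measured control genes and partners, 1 was 2-fold higher in ALDH-positive control cells, BACH1, a repressor that competes with NRF2 for its sites, where 6.09% of all genes were higher. BACH1 was at 8.42 in ALDH-positive DOX and 9.19 in ALDH-positive control, against 8.71 in ALDH-negative DOX and 8.07 in ALDH-negative control. In the additive model 3 of 13 rose and 1 fell, where 13.5% and 9.58% of all genes did. BACH2, a relative of BACH1 with only shared probe sets above background, rose by 1.08 ± 0.30 (SE, limma adjusted p = 0.0212). That call was lost without the filter on level (limma adjusted p = 0.0596), with a level of 7 (0.0563) and with values under 6 raised to 6 (0.125). NFE2L1, a relative of NRF2, also with only shared probe sets above background, rose by 0.77 ± 0.09 (SE, limma adjusted p = 0.000108). The small MAF gene MAFF rose by 0.65 ± 0.18 (SE, limma adjusted p = 0.0230). RBX1, a subunit of the ligase that destroys NRF2, fell by 0.55 ± 0.19 (SE, limma adjusted p = 0.0490). Without the trend the calls of the last 3 genes were lost, with limma adjusted p of 0.0560 for NFE2L1, 0.133 for MAFF and 0.122 for RBX1. Those of MAFF (limma adjusted p = 0.1146) and RBX1 (0.1165) were also lost without the filter on level. RBX1 lost its call with cyclic loess (limma adjusted p = 0.0670) and with probe sets averaged (0.0523) as well. Of 10 measured genes of NADPH supply, 2 rose and 1 fell, where 13.5% and 9.58% of all genes did. PGD of the pentose phosphate pathway fell by 1.07 ± 0.24 (SE, limma adjusted p = 0.00720, or 0.0528 without the filter on level), and PGLS of the same pathway rose by 1.19 ± 0.24 (SE, limma adjusted p = 0.00428). The 4 PGLS probe sets above background had ALDH differences of 0.79 to 0.93 in control and 0.17 to 1.70 in DOX arrays.

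**Figure D4:**
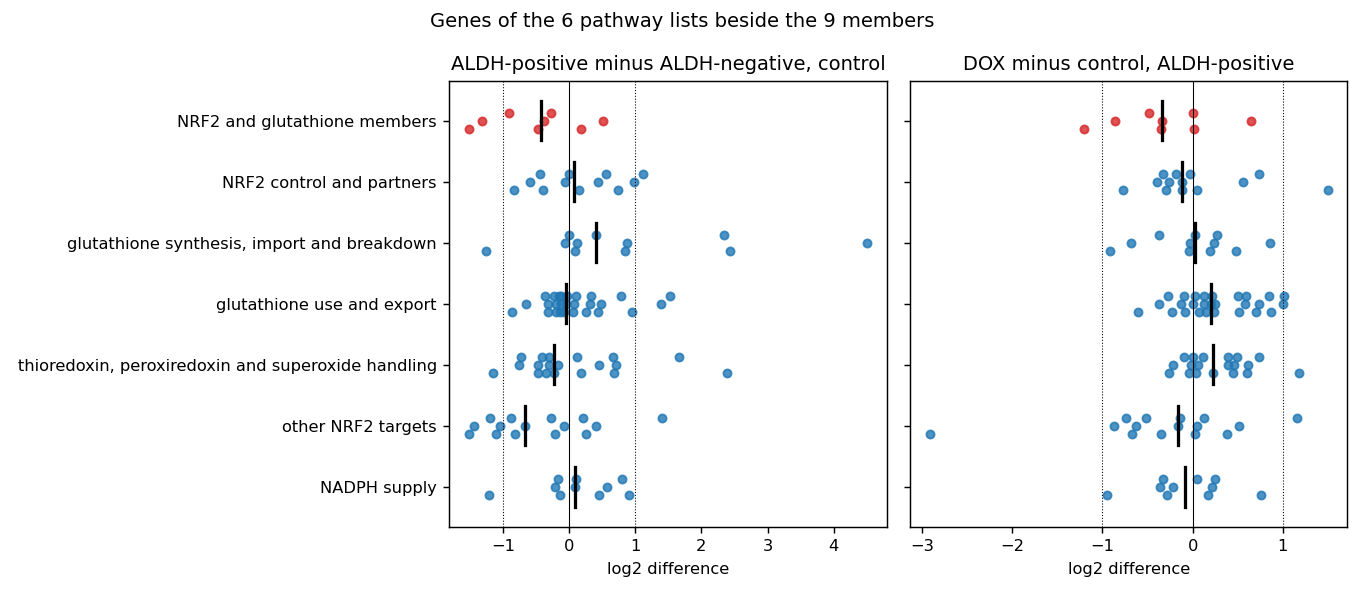
Log2 differences (x axis) of the measured genes in the member list and the 6 pathway lists (y axis), for the ALDH comparison of the control arrays on the left and the DOX comparison of ALDH-positive cells on the right. Points are genes, black bars are list medians and dotted lines mark 2-fold. On the left the other NRF2 targets have a median of -0.67 and the members one of -0.43, and on the right HMOX1 lies at -2.91.

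With DOX in ALDH-positive cells, 5 of the 95 pathway genes were 2-fold higher and 1 lower, where 3.47% and 2.30% of all genes were. HMOX1 was the lower one. BACH2 (1.497), SESN1 (1.18), the epoxide hydrolase EPHX1 (1.16), and the glutathione transferases GSTM2 and MGST2 (each 1.01) were the higher ones. With arrays centred on their median or with cyclic loess 3 were higher, with GSTM2 and MGST2 just short of 2-fold, and without shared probe sets 2 were. The BACH2 value starts from a control level of 5.68, under 6, so that its size is uncertain. Over the 6 lists the median was 0.05, beside 0.12 over all genes. With DOX in ALDH-negative cells no pathway gene was called, and no pathway gene passed the additive model for DOX, where 10 of 95 had an unadjusted limma p under 0.05, as did 652 of all 12365 genes.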

How the data were processed

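Per the submitters' processing notes the authors summarised the arrays with RMA, and the deposited log2 values were used without further scaling. RMA subtracts background, gives all arrays the same distribution and reduces each probe set to 1 value. No RMA version is given in the sources. The 4 arrays had log2 medians of 6.19 to 6.23. There were 54675 probe sets, 62 of them controls. The platform annotation of 2016 named 1 gene for 41091 of the others and several for 1801, and symbols were updated by gene identifier. The number of arrays limits the precision.

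The additive model used limma 3.58.1 in R 4.3.3, by lmFit and then eBayes with a trend, with two-sided p-values adjusted by Benjamini and Hochberg over 12365 genes and a prior of 11.6 degrees of freedom. The fit was run on simulated data with a single noise level, taken from the ALDH-negative pair, and no difference in DOX response between fractions. That run checks the code on known shifts. It cannot vouch for the p-values on these arrays, where the noise and the response may differ between fractions. Named are all 9 members and, per pathway list and comparison, up to 4 genes with the largest called difference or model estimate. Members, lists, thresholds and tests were chosen with earlier results of these data known. Alternatives changed the scaling (median centring, cyclic loess), the level (none, 7, or lower values raised to 6), the probe sets (averaged per gene, or without shared ones), the size (1.5-fold), the moderation (no trend, or robust) and the fit (on every probe set). Python 3.11.15, numpy 2.4.6, pandas 2.3.3 and matplotlib 3.10.9 were used.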

Additional observations from a re-analysis of the deposited data

Results flagged for a closer look

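With 1 array a group, a gene stood out where its difference was on opposite sides of 0 in the fractions or treatments compared, and none of these gaps was tested. For DOX minus control, in ALDH-positive and then ALDH-negative cells, NFE2L2 was at -0.48 and 0.05 (a gap of -0.54), KEAP1 at 0.64 and -0.02 (0.66) and TXNRD1 at -0.34 and 0.01 (-0.35). The other NFE2L2 probe sets were below 0 in both fractions, at -0.56 and -0.02, and at -0.85 and -0.23. The opposite sides of NFE2L2 thus rest on the probe set that stands for it. NQO1 (a gap of 0.0363) and GSR (0.18) had differences of opposite sign, each under 0.2 in size. The other NQO1 probe sets gave gaps of -0.36 and -0.17, and the other GSR probe set gave -0.09. SESN1, from 1 shared probe set, was at 1.18 and -0.08 (1.26). For ALDH-positive minus ALDH-negative, in the control and then the DOX arrays, NFE2L2 was at 0.50 and -0.03 (0.54), TXNRD1 at 0.18 and -0.17 (0.35), BACH1 at 1.12 and -0.29 (1.41) and SESN1 at -1.15 and 0.12 (-1.26). These are the same 4 arrays, so that the gaps of a gene under DOX and under ALDH are the same size.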

How the results depend on the processing

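No paired analysis was possible because each group held 1 array, so that no replicate number could serve as a block. The additive model already compares the fractions within each treatment. The ALDH calls of GCLM and NQO1 passed the additive model in each of the 9 and 8 alternatives that gave them a value, with limma adjusted p up to 0.0181 and 0.0182. GCLC passed in 4 of 9, and KEAP1 passed with a level of 7 (limma adjusted p = 0.0395). NQO1 has only shared probe sets, so that leaving those out removes it. That setting left 1 member of 3 in the ALDH model, 1 of 2 called between the fractions under control, 1 of 3 between them under DOX, and 0 of 1 with DOX in ALDH-positive cells, where averaging probe sets per gene also left 0 and 1.5-fold gave 3. For pathway genes it left 3 of 6 with DOX in ALDH-positive cells. At 1.5-fold the pathway counts were 26 with DOX in ALDH-positive cells, 3 (of a main count of 0) in ALDH-negative cells, 37 of a main count of 17 between the fractions under control and 40 of 23 between them under DOX. Pathway calls for ALDH in the model, 37 of 95 (13.5% of all genes passed as higher and 9.58% as lower), became 20 without a filter on level and 20 without the trend. The shares of all genes under the alternatives, 1.5-fold included, were not worked out. These counts therefore show only how the calls move with the setting. The DOX term called no member or pathway gene in any alternative. AKR1C2 was at 0.0859 instead of -1.11 between the fractions under control without shared probe sets. Except where a sentence above names the reason, the cause was not tested. Levels under 6 are background, and AKR1B10 has no direction for that reason.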
